A study of Mus musculus with 16 samples.

Results

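Memory and naive CD8 T cells from leukemic mouse spleens were compared across all genes, using 8 of the 16 expression arrays of a series on sorted CD8 subsets. Arrays were chosen by their titles: 4 are labelled memory CD8 and 4 naive CD8. All mice were female, of a strain given as C57BL/6 in the protocol and C56BL/6 in the sample labels, and had received murine chronic lymphocytic leukemia (CLL) cells from Eµ-TCL1 mice, in which the TCL1 oncogene is expressed in B cells, 6 weeks before the spleens were taken. Every subset was sorted as lineage-negative, TCRb+ and CD8+. Naive cells were gated as CD127hi CD44low and memory cells as CD127hi CD44hi. The other 2 subsets, 4 arrays each, were CD127low CD44int-hi effector cells with intermediate (PD-1int) or high (PD-1hi) PD-1, and enter here only through the shared estimate of the spread and a few levels given for orientation. No group of mice without leukemia was analysed here, so both populations share the leukemic host, and a CD44hi cell in such a host may be a resting memory cell, a recently divided cell or one that gained CD44 without antigen. The labels do not say whether arrays came from separate or pooled mice, so the p-values reflect the spread among these arrays alone, which may be technical.

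Naive CD8 T cells circulate through lymphoid organs in a resting state that depends on interleukin 7 and on weak contacts with self-peptides. After a first encounter with antigen a small share of the progeny persists as memory cells, which need interleukin 15, divide slowly on their own, and keep transcripts for killing and migration ready. The receptor for interleukin 7 (CD127) is carried by both, and the adhesion receptor CD44 separates them in the mouse.

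Values are log2 expression, so 1 unit is a 2-fold change. The gates were visible in the transcripts, which are not findings because they chose the cells. Cd44 lay at 6.05, 6.23, 5.96 and 6.04 on naive arrays 1 to 4 and at 9.13, 8.94, 8.84 and 9.06 on memory arrays 1 to 4. Il7r, which encodes CD127, lay between 12.89 and 13.04 in naive and between 12.48 and 12.67 in memory, without overlap; the difference did not pass the test (limma adjusted p = 0.256) but passed when only the 8 naive and memory arrays were fitted (adjusted p = 0.00731). Pdcd1, which encodes PD-1, did not pass (adjusted p = 0.241). Cd8a and Cd8b1, the chains of the CD8 coreceptor, did not pass (limma adjusted p of 0.994 and 0.773).

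Markers of other cells were examined as lists, and members of 3 lists changed. None of the 14 measured B-cell and CLL-cell markers passed the test (1 was lower without naive replicate 1 or without memory replicate 4, and 1 higher without memory replicate 2), and their mean level was 5.94 to 6.28 on naive arrays and 5.88 to 6.27 on memory arrays, with replicate 4 highest in both subsets. Of 8 markers of CD4 and regulatory T cells 3 fell and 1 rose. Their mean was 7.08 to 7.24 on naive arrays and 6.54 to 6.64 on memory arrays, without overlap. Trat1, an adaptor that stabilises the T-cell receptor complex, fell by 2.28, Izumo1r, which encodes folate receptor 4, by 1.40 and Ikzf4, which encodes Eos, by 0.75 on the log2 scale. Zbtb7b, the CD4-lineage factor ThPOK, rose by 0.29 ± 0.09 (limma adjusted p = 0.0425). This call was lost without any 1 of naive replicates 1 and 3 and memory replicates 1, 2 and 4. It was also lost with only the 8 arrays fitted, after quantile normalization, after median centring and with trended robust moderation. The defining genes Cd4, at 5.74 to 6.11 over all 8 arrays, and Foxp3, the factor of regulatory T cells, did not pass (adjusted p of 0.952 and 0.706). The part of such cells in other results was not tested.

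Of 17 myeloid and dendritic-cell markers 3 rose and none fell, with a median difference of -0.035. That is 17.6% changed, against 11.7% of all genes and 3.68% of genes with a mean level from 5 to below 7. When the probe sets of a gene were averaged, 2 rose. Tyrobp, an adaptor of natural killer (NK) and myeloid receptors, rose by 0.91 ± 0.15 (log2 difference ± SE, limma adjusted p = 0.000408), and Fcer1g, an adaptor of Fc receptors, rose by 0.70 ± 0.17 (adjusted p = 0.00976). Among 8 markers of NK, NKT and gamma-delta T cells, Klrb1c, which encodes NK1.1, and Tyrobp rose, while Ncr1, the receptor NKp46 that defines NK cells, stayed between 5.63 and 6.01 on all 8 arrays. Cd163l1, a scavenger-type receptor gene best known from gamma-delta T cells and not counted in this list, rose by 2.97 ± 0.12. The list's mean was 5.97 to 6.09 on naive and 6.25 to 6.32 on memory arrays, and its part in the rises of NK-type receptors below was not tested. In bulk samples such as these, fewer cells of a type and less RNA per cell cannot be told apart.

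Genes are described as rising, falling or changing where the limma p, Benjamini-Hochberg adjusted over 22180 genes, was under 0.05. By this rule 2601 genes, 11.7% of those tested, differed between the subsets: 1487 were higher in memory (6.7%) and 1114 lower (5.02%). Changes of at least 2-fold were found in 422 genes (1.9%), of which 294 were higher and 128 lower in memory. The median difference over all genes was -0.02. Bright genes passed more often than dim ones: 33.1% of genes with a mean log2 level of 11 or more passed, against 1.5% of those below 5. The share was 3.68% from 5 to below 7, 18.6% from 7 to below 9 and 29.8% from 9 to below 11. Counts for gene lists are descriptions to be set beside these shares and the 11.7% of all genes. Across all genes the mean Pearson r was 0.9909 among naive arrays, 0.9934 among memory arrays and 0.9798 between naive and memory arrays. These r values describe the arrays only, since genes are not independent replicates.

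**Figure D1:**
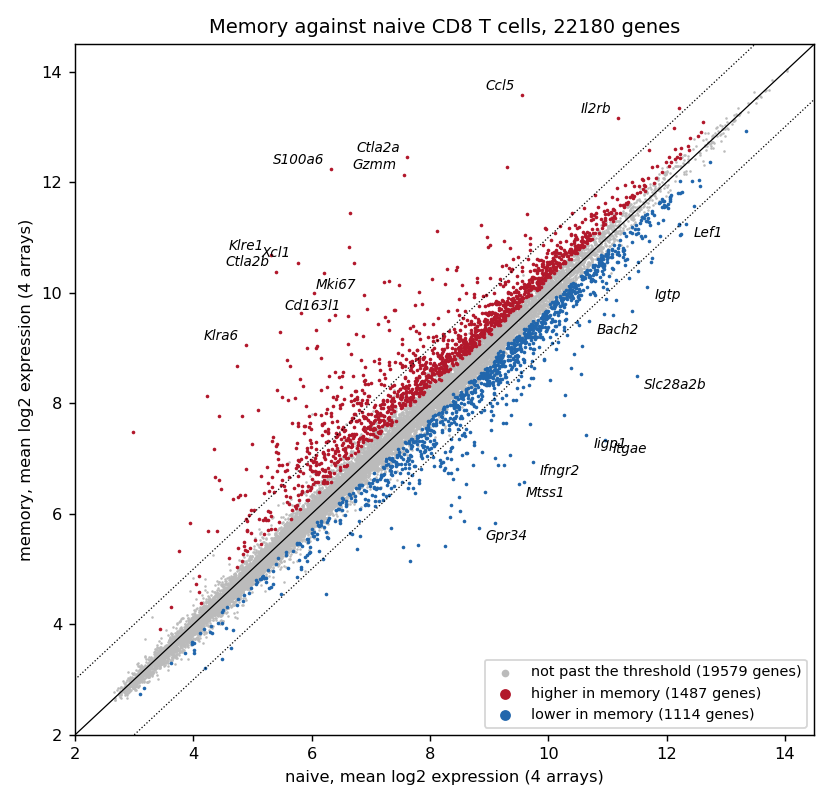
Mean log2 expression of 22180 genes in naive (horizontal axis) and memory (vertical axis) CD8 T cells, 4 arrays each. Red and blue points mark the 1487 genes higher and the 1114 genes lower in memory; the solid line marks equal levels and the dotted lines a 2-fold difference. The points farthest above the line include S100a6, Klre1, Ctla2a and Gzmm, and the farthest below include Itgae, Iigp1 and Gpr34.

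The largest rise was that of S100a6, which encodes a small calcium-binding protein. S100a6 lay at 6.10, 6.16, 6.10 and 6.96 on naive arrays 1 to 4 and at 12.31, 12.16, 12.21 and 12.23 on memory arrays 1 to 4. The memory arrays lay close together and far above every naive array, of which replicate 4 was the highest. The difference was 5.90 ± 0.14, or 59.6-fold (limma adjusted p = 5.24e-15). In the list of annexins, S100 proteins and galectins 9 of 24 measured members rose and none fell, 37.5% against 11.7% of all genes. The median difference was 0.14 against -0.02 over all genes. Besides S100a6, S100a4 rose by 2.66 ± 0.18, Lgals1, which encodes a galactose-binding lectin, by 2.96 ± 0.14, Anxa2, which encodes a calcium-dependent membrane-binding protein, by 2.5 ± 0.10, and Ahnak, whose giant protein binds S100 and annexin partners at the membrane, by 2.20 ± 0.10.

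Second in size was Klre1, which encodes a lectin-like receptor of NK and T cells. Klre1 lay at 6.36, 5.10, 4.71 and 5.07 on naive arrays and at 10.79, 10.49, 10.56 and 10.86 on memory arrays, a rise of 5.36 ± 0.26. Naive replicate 1 was more than 1 unit above the other naive arrays and still over 4 units below the lowest memory array. The promoters of both genes are shown because they hold TGTGGTT, a core bound by RUNX factors, which direct the CD8 lineage. Of 16990 genes with a promoter in the RefSeq table (GRCm38.p6, 250 bases before to 50 after the start), 5.27% hold these letters on either strand. Among the 30 largest rises 6 of 26 genes with a promoter hold them (23.1%), and among the 30 largest falls 0 of 21. The match is in capitals, 5′ to 3′ on the gene's own strand, which is plus for both; a match is a description and not a bound site. The table gives Klre1 a second start, whose promoter holds no match.
S100a6, chr3:90612644-90612943: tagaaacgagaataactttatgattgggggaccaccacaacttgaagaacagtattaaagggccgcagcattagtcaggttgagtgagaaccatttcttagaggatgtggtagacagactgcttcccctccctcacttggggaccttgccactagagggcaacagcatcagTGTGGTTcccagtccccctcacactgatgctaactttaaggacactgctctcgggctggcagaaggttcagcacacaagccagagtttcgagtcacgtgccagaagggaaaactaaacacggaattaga
Klre1, chr6:129577963-129578262: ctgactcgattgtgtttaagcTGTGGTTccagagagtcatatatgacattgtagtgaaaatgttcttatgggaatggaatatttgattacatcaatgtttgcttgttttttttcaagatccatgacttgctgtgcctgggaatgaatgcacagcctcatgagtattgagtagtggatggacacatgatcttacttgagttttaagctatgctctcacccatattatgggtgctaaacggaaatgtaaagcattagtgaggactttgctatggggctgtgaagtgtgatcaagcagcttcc

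The neighbouring genes Ctla2a and Ctla2b, whose products inhibit cysteine proteases of the cathepsin type, followed in rank. Ctla2b lay at 5.28, 5.30, 5.74 and 5.29 on naive arrays and at 10.40, 10.25, 10.33 and 10.55 on memory arrays, a rise of 4.98 ± 0.14. Ctla2a lay at 7.90, 7.14, 7.69 and 7.72 on naive arrays and at 12.41, 12.51, 12.58 and 12.30 on memory arrays, a rise of 4.84 ± 0.12. Both sets of arrays were separated by more than 4 units in either gene. The pair are close copies, and how far each probe set also reads the other was not tested. Their promoters (RefSeq, GRCm38.p6, minus strand) are shown because they are near copies too: 255 of 278 aligned bases, 91.7%, are identical. Neither holds the RUNX letters above. Counted as a list of protease inhibitors, 6 of 12 measured members rose and none fell, among them Serpinb6b (1.33 ± 0.14) and Serpinb9 (0.55 ± 0.12), which encode serpins that block granule proteases.
Ctla2a, chr13:60936576-60936875: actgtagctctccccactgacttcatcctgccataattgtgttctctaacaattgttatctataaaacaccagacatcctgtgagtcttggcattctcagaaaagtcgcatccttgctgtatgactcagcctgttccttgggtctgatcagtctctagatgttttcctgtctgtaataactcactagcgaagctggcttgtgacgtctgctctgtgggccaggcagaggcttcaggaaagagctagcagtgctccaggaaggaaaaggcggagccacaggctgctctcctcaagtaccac
Ctla2b, chr13:60897398-60897697: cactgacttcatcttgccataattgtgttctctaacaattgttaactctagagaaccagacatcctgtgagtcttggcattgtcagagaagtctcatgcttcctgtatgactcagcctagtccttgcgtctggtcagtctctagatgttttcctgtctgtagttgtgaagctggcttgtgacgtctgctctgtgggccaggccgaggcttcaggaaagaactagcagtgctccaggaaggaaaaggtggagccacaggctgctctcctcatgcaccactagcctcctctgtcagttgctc

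Several strong rises lay outside the receptor and granule lists. Samd3, which encodes a sterile alpha motif protein, lay at 6.52, 6.82, 6.48 and 6.80 on naive arrays and at 11.54, 11.38, 11.38 and 11.46 on memory arrays, a rise of 4.78 ± 0.24. Plek, which encodes the protein kinase C substrate pleckstrin, rose from 5.95 to 6.44 on naive arrays to 10.19 to 10.43 on memory arrays. Cd163l1 lay at 6.83, 6.67, 6.55 and 6.38 on naive arrays and at 9.84, 9.69, 9.52 and 9.28 on memory arrays (difference 2.97 ± 0.12). In each of these genes the groups were separated by at least 2 units. The mean level of Cd163l1 was 6.63 in PD-1int and 6.55 in PD-1hi cells, close to naive, and that of Samd3 was 10.53 and 7.52; these are descriptions, not tests. Zdhhc2, a palmitoyltransferase gene, spread by more than 1 unit within memory, with 7.88, 7.87, 6.90 and 8.40 against 4.11 to 4.90 in naive, and memory replicate 3 was the lowest. Among the 30 largest rises were also Heatr9 (3.20 ± 0.14), Lrrk1, a kinase gene (3.20 ± 0.10), and Osbpl3, which encodes an oxysterol-binding protein (3.08 ± 0.12).

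**Figure D2:**
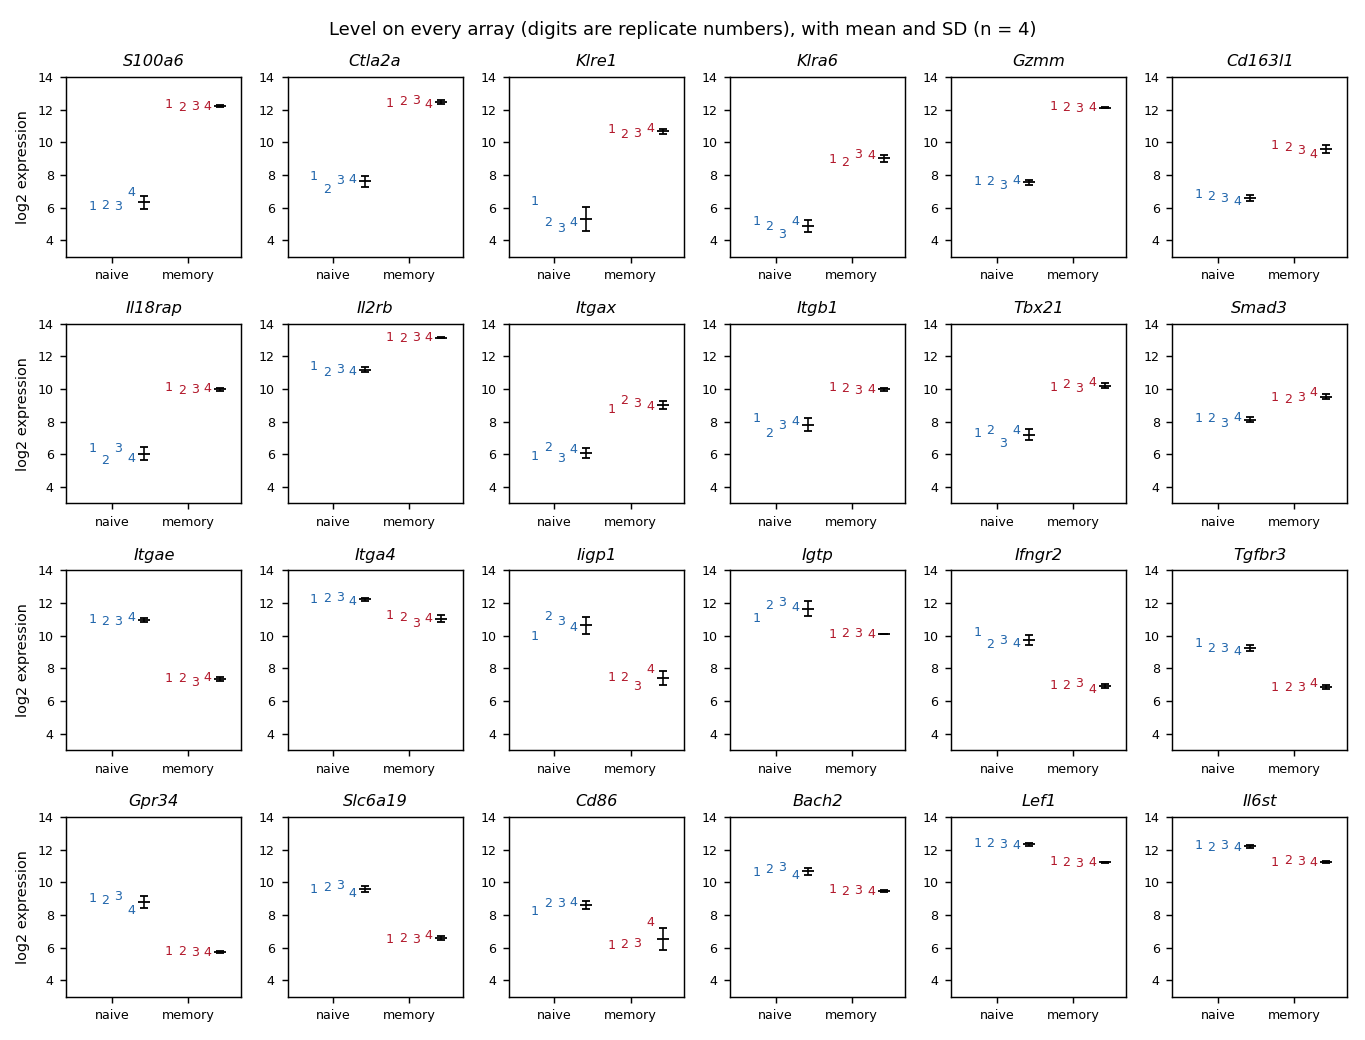
Log2 expression of 24 genes on every array, naive in blue and memory in red; each digit is an array, named by its replicate number, and the bar beside each group is the mean ± SD (n = 4). All panels share 1 axis from 3 to 14, and in none of the 24 genes do the naive and memory arrays overlap. Most of the 24 come from rankings that kept only genes without overlap, so this is not a finding. Over all genes, 3477 of 22180 (15.7%) had no overlap. Naive replicate 1 lies below the other naive arrays for Igtp and Iigp1, and memory replicate 4 lies above the other memory arrays for Cd86.

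Receptors of the NK gene complex rose as a group. Of 10 measured genes for NKG2 and CD94 receptors and their adaptors, 8 rose and none fell, with a median difference of 1.79. Klrk1, which encodes the activating receptor NKG2D, lay at 5.37, 5.48, 5.42 and 5.59 on naive arrays and at 9.44, 9.10, 8.93 and 9.68 on memory arrays, a rise of 3.82 ± 0.21. Klrc2 rose by 3.94 ± 0.32 and Klrc1 by 2.67 ± 0.20; they encode an activating and an inhibitory partner of CD94. Klrd1, the CD94 gene itself, was bright in both subsets, between 11.40 and 11.88 in naive and between 11.51 and 11.76 in memory, and did not pass (-0.07 ± 0.14, adjusted p = 0.869). Klrc3 rose from 2.81 to 3.19 on naive arrays, near the bottom of the scale, to 7.33 to 7.67 on memory arrays.

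Ly49 receptors, which bind MHC class I and are best known from NK cells, were measured through 5 genes, of which 3 rose and none fell. Klra6 lay at 5.16, 4.84, 4.35 and 5.17 on naive arrays and at 8.96, 8.78, 9.25 and 9.19 on memory arrays, a rise of 4.16 ± 0.23. Klra9 rose by 3.89 ± 0.25 and Klra5 by 2.95 ± 0.31. The 2 sets of arrays were more than 2 units apart in all 3 genes. Ly49 and NKG2 genes are close copies of their neighbours, so which copy a probe set reads is uncertain. Mean Klra6 levels were 6.03 in PD-1int and 5.69 in PD-1hi cells, between naive and memory. Of 8 genes for NKR-P1, KLRG1 and related lectins 4 rose and none fell; Klrb1c went from 5.16 to 5.50 on naive arrays to 7.08, 6.36, 6.04 and 7.17 on memory arrays.

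Of the immunoglobulin-like receptors of the SLAM family and their adaptors, 4 of 12 rose and 3 fell, 58.3% against 11.7% of all genes. Slamf7, whose product is an activating receptor of NK cells, lay at 6.64, 7.02, 6.18 and 6.69 on naive arrays and at 10.92, 10.85, 10.70 and 10.88 on memory arrays, a rise of 4.20 ± 0.12. Slamf6 went the other way, from 12.36 to 12.59 on naive arrays to 11.48 to 11.63 on memory arrays (-0.90 ± 0.08), and Slamf1 fell by 1.19 on the log2 scale. Among 18 inhibitory receptors 5 rose and 2 fell, 38.9% against 11.7% of all genes. Lilrb4a rose by 3.82 ± 0.16, Cd22, better known as a B-cell receptor for sialic acid, by 3.22 ± 0.12, Tigit by 2.26 ± 0.11, Lair1, which binds collagen, by 1.31, and Cd160 by 1.12 ± 0.16. Cd22 lay at 6.03, 6.34, 6.53 and 6.24 on naive arrays and at 9.60, 9.36, 9.50 and 9.55 on memory arrays, without overlap; the part of B cells in these values was not tested. Pecam1, an adhesion receptor with inhibitory motifs, fell by 1.32 on the log2 scale. The checkpoint genes Lag3, Havcr2 and Ctla4 differed by 0.25 ± 0.18, -0.05 ± 0.19 and -0.27 ± 0.13 and did not pass (adjusted p of 0.469, 0.926 and 0.218).

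Cytotoxic granule contents rose in 9 of 16 measured genes and fell in none (median 0.67). Gzmm, which encodes granzyme M, lay at 7.58, 7.63, 7.35 and 7.65 on naive arrays and at 12.18, 12.14, 12.09 and 12.12 on memory arrays, a rise of 4.58 ± 0.12 or 23.9-fold. Gzmb rose by 3.26 ± 0.17, Gzma by 2.47 ± 0.21 and Gzmk by 2.29 ± 0.19. Prf1, whose product perforin opens the target membrane, rose by 1.29 ± 0.11 from a naive level already between 9.50 and 9.88. Mean Gzmm levels were 9.32 in PD-1int and 7.61 in PD-1hi cells, whereas those of Gzmb were 12.98 and 13.08. Granzyme genes without a rise were dim in both subsets: Gzmc, Gzmd, Gzmf and Gzmg stayed between 3.57 and 5.11. The RUNX letters TGTGGTT stand in 7 of 14 granule-content promoters; 6 of these 7 are granzyme genes, 4 of which did not pass here, and granzyme copies share sequence. Of 18 genes for granule transport and release 4 rose and none fell, 22.2% changed against 11.7% of all genes. Of all genes with a mean level from 7 to below 9, 18.6% passed. Sytl2, which tethers granules to the membrane, rose by 2.35 ± 0.13 and its partner Rab27a by 0.68 ± 0.15. Lyst, mutated in beige mice, rose by 0.71 ± 0.08, and Sytl3 by 0.54.

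Secreted and membrane-bound mediators rose in 8 of 23 genes and fell in 1, 39.1% against 11.7% of all genes. The fall was that of Ltb, which encodes lymphotoxin beta (-0.37 ± 0.10), and was lost without naive replicate 3, memory replicate 1 or memory replicate 4. Xcl1, which attracts cross-presenting dendritic cells, lay at 5.46, 5.53, 5.77 and 6.33 on naive arrays and at 10.53, 10.69, 10.29 and 10.65 on memory arrays, a rise of 4.77 ± 0.24. Ccl5 rose by 4.02 ± 0.08 and Fasl, the ligand of the death receptor Fas, by 3.82 ± 0.08. Tnfsf14, a ligand of the herpesvirus entry mediator, rose by 1.43 ± 0.19.

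The largest fall was that of Itgae, which encodes the integrin chain CD103. Itgae lay at 10.98, 10.86, 10.86 and 11.14 on naive arrays and at 7.39, 7.37, 7.14 and 7.42 on memory arrays, a difference of -3.63 ± 0.10, or 12.4-fold lower (limma adjusted p = 5.06e-14). Integrins are pairs of an alpha and a beta chain that bind matrix and other cells, and their chains split: 7 of 18 rose and 4 fell, with a median of -0.03. Itgax, the CD11c chain, lay at 5.85, 6.43, 5.78 and 6.33 on naive arrays and at 8.76, 9.28, 9.13 and 8.95 on memory arrays, a rise of 2.93 ± 0.25. Chains of collagen receptors rose together: Itgb1 by 2.19 ± 0.17, Itga2 by 1.99 ± 0.19 and Itga1 by 1.35 ± 0.15. Both chains of LFA-1, which binds ICAM-1, rose by less than 1 unit, Itgal by 0.70 ± 0.07 and Itgb2 by 0.63. Itga4, which pairs with Itgb1 or Itgb7 for homing, fell from 12.10 to 12.33 on naive arrays to 11.25, 11.12, 10.78 and 11.03 on memory arrays (-1.18 ± 0.09), and Itga6, a laminin receptor chain, fell by 0.58. Itgb7, the partner of Itgae, lay between 10.56 and 10.67 in naive and between 10.20 and 10.45 in memory, without overlap but not past the threshold (adjusted p = 0.0806); it passed when only the 8 arrays were fitted (0.0271) and after quantile normalization (0.0415).

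Chemokine receptors changed in 7 of 18 genes, 38.9% against 11.7% of all genes. Ccr2, the receptor of inflammatory monocyte chemokines, rose by 3.04 ± 0.28, Cxcr3, which responds to interferon-induced chemokines, by 2.13 ± 0.21, and Cxcr5, which guides cells to B-cell follicles, by 2.31 ± 0.15. Cxcr5 lay at 7.45, 7.05, 6.96 and 7.05 on naive arrays and at 9.42, 9.75, 9.14 and 9.44 on memory arrays. Ccr7, which brings T cells into lymph nodes, fell from 10.89 to 11.02 on naive arrays by 1.1 on the log2 scale, with memory replicate 4 lowest at 9.64. Ccr9, the receptor for gut and thymus homing, fell by 1.61 on the log2 scale. Egress receptors for sphingosine phosphate diverged, S1pr1 falling by 0.62 and S1pr5 rising by 1.08 ± 0.13. Of the sialyltransferases and fucosyltransferases that build selectin ligands, St3gal6 rose by 1.24 ± 0.08 and Fut7 by 0.55, whereas Gcnt1, the branching enzyme, differed by -0.10 ± 0.14 and did not pass. St8sia1, which makes the ganglioside GD3, fell from 8.01 to 8.53 on naive arrays to 5.96 to 6.29 on memory arrays.

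Receptors for interleukins changed in 12 of 17 genes, 7 up and 5 down. Il2rb, the chain that interleukins 2 and 15 share, lay at 11.37, 11.03, 11.20 and 11.11 on naive arrays and at 13.19, 13.13, 13.14 and 13.18 on memory arrays, a rise of 1.98 ± 0.08. Il15ra, which presents interleukin 15, rose by 0.52 ± 0.11. Il18rap rose by 3.96 ± 0.27, from 6.39, 5.64, 6.35 and 5.75 on naive arrays to 10.11, 9.89, 9.98 and 10.01 on memory arrays, and its partner Il18r1 rose by 1.85 ± 0.16. The chains for interleukin 10 rose, Il10ra by 1.16 ± 0.14 and Il10rb by 1.05 ± 0.08, as did Il12rb1 (1.18 ± 0.17). The signal chain of the interleukin 6 family, Il6st, fell from 12.14 to 12.28 on naive arrays to 11.20 to 11.32 on memory arrays (-0.96 ± 0.10), and Il6ra fell by 0.40.

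Interferon-inducible GTPases were lower in memory. These guanylate-binding proteins (GBP) and immunity-related GTPases (IRG) attack the vacuoles of intracellular microbes and are induced chiefly by interferon gamma. Of 15 measured genes 11 fell and 1 rose, with a median of -0.96. Iigp1 lay at 9.98, 11.16, 10.89 and 10.53 on naive arrays and at 7.43, 7.42, 6.89 and 7.96 on memory arrays, a difference of -3.21 ± 0.26. Igtp lay at 11.05, 11.85, 12.05 and 11.74 on naive arrays and at 10.09, 10.12, 10.12 and 10.09 on memory arrays (-1.56 ± 0.16). The naive arrays were always above the memory arrays, and naive replicate 1 was the lowest of them in both genes; the list mean was 9.14 on that array, 9.51 to 9.74 on the other naive arrays and 8.42 to 8.61 on memory arrays. Gbp11 fell by 2.37, Irgm2 by 1.5, Gbp10 by 1.18 and Gbp5 by 1.04 on the log2 scale. The exception was Mx1, an antiviral GTPase of the type I interferon response, which rose by 0.63 ± 0.15. GBP genes are close copies of each other, and reads of a neighbour by a probe set were not tested.

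The promoters of Igtp and Irgm2 are shown because all 6 GTPase genes with a promoter in the table (RefSeq, GRCm38.p6) hold the letters of an interferon-stimulated response element (ISRE), searched as GAAA, any 2 bases and GAAA again on either strand, against 3.87% of all 16990 genes. Both lie on the plus strand, and 244 of 265 aligned bases (92.1%) are identical, so the 2 promoters are not independent of each other. The element is in capitals.
Igtp, chr11:58199306-58199605: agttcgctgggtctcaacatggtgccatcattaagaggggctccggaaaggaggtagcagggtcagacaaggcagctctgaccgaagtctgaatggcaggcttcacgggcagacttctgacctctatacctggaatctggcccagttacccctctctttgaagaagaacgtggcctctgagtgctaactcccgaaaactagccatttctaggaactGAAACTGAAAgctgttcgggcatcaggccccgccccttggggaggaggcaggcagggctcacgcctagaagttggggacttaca
Irgm2, chr11:58214727-58215026: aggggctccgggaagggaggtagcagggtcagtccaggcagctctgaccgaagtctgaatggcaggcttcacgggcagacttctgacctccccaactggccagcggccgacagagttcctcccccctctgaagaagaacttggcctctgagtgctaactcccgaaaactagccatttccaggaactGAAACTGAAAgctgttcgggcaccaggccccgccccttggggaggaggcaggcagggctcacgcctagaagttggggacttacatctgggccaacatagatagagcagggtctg

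The antiviral genes of the type I interferon response were divided. Of 23 genes 9 fell and 3 rose, with a median of -0.11, although 11 of 18 promoters (61.1%) hold the same ISRE letters. Oas2 fell by 0.79 and Ifit1 by 0.75 on the log2 scale, whereas Oas3, a neighbour of Oas2 with a like product that senses double-stranded RNA, rose by 0.77 ± 0.14 and Eif2ak2, the kinase PKR, by 0.52 ± 0.10. Isg15 and Ifit3 did not pass (adjusted p of 0.706 and 0.824). In MHC class I antigen presentation 9 of 17 genes fell and none rose (median -0.32). The peptide transporter genes Tap1 and Tap2 fell by 0.50 and 0.57 on the log2 scale and Nlrc5, the transactivator of class I genes, by 0.37, whereas B2m, the light chain, differed by -0.06 ± 0.06 and H2-K1 by -0.12 ± 0.06 and did not pass.

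Both chains of the interferon gamma receptor were measured. Ifngr2, the signalling chain, lay at 10.21, 9.49, 9.70 and 9.55 on naive arrays and at 6.93, 6.97, 7.08 and 6.73 on memory arrays, a difference of -2.81 ± 0.16, or 6.99-fold lower. Ifngr1, the ligand-binding chain, rose by 0.40 ± 0.10 (limma adjusted p = 0.0139), a call lost without naive replicate 4 or memory replicate 2. Mean levels of Ifngr2 in PD-1int and PD-1hi cells were 6.77 and 6.89. For the type I interferon receptor, Ifnar2 rose by 0.68 ± 0.10 and Ifnar1 differed by 0.01 ± 0.09 and did not pass.

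Transforming growth factor beta (TGF-beta) restrains T cells and induces CD103. Its part in the fall of Itgae was not tested. Of 20 genes for TGF-beta family receptors, ligands, SMADs and their regulators, activin receptor genes included, 9 fell and 3 rose (median -0.30). Tgfbr3, a co-receptor that presents the ligand, lay at 9.50, 9.23, 9.23 and 9.06 on naive arrays and at 6.82, 6.82, 6.83 and 7.05 on memory arrays, a difference of -2.38 ± 0.15. The signalling receptor Tgfbr2 fell by 0.49 and the common mediator Smad4 by 0.52 on the log2 scale, and the inhibitory Smad7 fell by 0.57. Smad3, which carries the signal to the nucleus, went against the list, from 8.2, 8.19, 7.91 and 8.25 on naive arrays to 9.49, 9.39, 9.50 and 9.78 on memory arrays (1.41 ± 0.12). The activin receptor gene Acvr2a rose by 0.86 ± 0.14, and Tgfb1, the ligand itself, by 0.38 ± 0.09.

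Among the other large falls, Gpr34, a receptor for lysophosphatidylserine, lay at 9.0, 8.87, 9.14 and 8.28 on naive arrays and at 5.78, 5.80, 5.71 and 5.69 on memory arrays, a difference of -3.08 ± 0.14. Slc6a19, a transporter of neutral amino acids known from gut and kidney, lay at 9.56, 9.68, 9.81 and 9.34 on naive arrays and at 6.50, 6.56, 6.51 and 6.76 on memory arrays (-3.02 ± 0.11). Slc28a2b, a nucleoside transporter gene, fell by 3.01 and Mtss1, whose product bends membranes at actin-rich sites, by 2.96 on the log2 scale. All 4 genes had naive arrays more than 2 units above memory arrays.

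Gria3, a glutamate receptor subunit gene of neurons, fell by 2.83, Xkrx, a gene of the phospholipid scramblase-like XK family, by 2.71, Igfbp4, which encodes a binding protein of insulin-like growth factors, by 2.48 and Igf1r, their receptor, by 2.19 on the log2 scale. Mean levels of Gria3 in PD-1int and PD-1hi cells were 5.53 and 5.49, near its memory range of 5.32 to 5.51. Trat1 fell to 7.26, 6.93, 6.68 and 7.39 on memory arrays from 9.21 to 9.56 on naive arrays, and its mean was 9.60 in PD-1int and 9.44 in PD-1hi cells. Cd86, a costimulatory ligand better known from B cells and dendritic cells, lay at 8.23, 8.72, 8.72 and 8.76 on naive arrays and at 6.17, 6.19, 6.27 and 7.52 on memory arrays. Memory replicate 4, where B-cell markers were also highest, stood more than 1 unit above the other memory arrays, and the part of B cells in that value was not tested. Without memory replicate 4 the fall of Cd86 was larger, at -2.40 ± 0.22.

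Lists of transcription factors moved in opposite directions. Of 19 naive and quiescence regulators 10 fell and none rose (median -0.37); 1 member, Id3, was higher without naive replicate 1, memory replicate 1 or memory replicate 3. Bach2, a repressor that keeps T cells undifferentiated, lay at 10.63, 10.79, 10.89 and 10.43 on naive arrays and at 9.57, 9.44, 9.50 and 9.44 on memory arrays (-1.20 ± 0.12). Lef1, a Wnt-pathway factor, fell by 1.09, Klf3 by 0.77 and Klf2, which drives genes of recirculation, by 0.60 on the log2 scale. Of 24 effector and memory factors 10 rose and 1 fell (median 0.33), 45.8% against 11.7% of all genes. When the probe sets of a gene were averaged, 7 rose. The number that fell was 2 without naive replicate 4, with only the 8 arrays fitted and after quantile normalization. Tbx21, which encodes T-bet, lay at 7.26, 7.45, 6.70 and 7.48 on naive arrays and at 10.09, 10.28, 10.05 and 10.38 on memory arrays, a rise of 2.98 ± 0.13. Eomes, the related T-box factor, rose by 2.21 ± 0.09. Bhlhe40 rose by 1.29 ± 0.13 and Ikzf2, which encodes Helios, by 1.14 ± 0.20. Prdm1, which encodes Blimp-1, rose by 1.02 ± 0.24 with overlapping arrays, 6.26 to 6.88 in naive against 7.40, 8.07, 6.66 and 7.99 in memory. Arid5b was the member that fell, by 1.12 on the log2 scale, and Id2 and Id3 did not pass (adjusted p of 0.267 and 0.0524).

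Signalling below the T-cell receptor changed by less than 2-fold in every gene of its list that passed, 9 up and 5 down of 27. The kinase gene Fyn rose by 0.58 ± 0.06 and the phosphatase genes Ptpn6 (SHP-1) and Ptpn7 by 0.67 ± 0.09 and 0.72 ± 0.14. Ubash3b, a phosphatase that dampens ZAP-70 signalling, rose by 0.94 ± 0.10, and Rasgrp1, which activates RAS, fell by 0.61 on the log2 scale. Of 17 phosphatases and Sprouty-type brakes on kinase signalling 3 rose and 2 fell, 29.4% against 11.7% of all genes. Dusp5 rose by 1.54 ± 0.12 and Dusp6 by 1.26 ± 0.17, whereas Dusp10 fell by 0.98. Dusp6 lay at 9.06, 8.56, 8.86 and 9.55 on naive arrays and at 10.05, 10.25, 10.43 and 10.37 on memory arrays, without overlap. By symbol, 12 of 45 Ptp phosphatase genes rose and 1 fell, 28.9% against 11.7% of all genes.

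**Figure D3:**
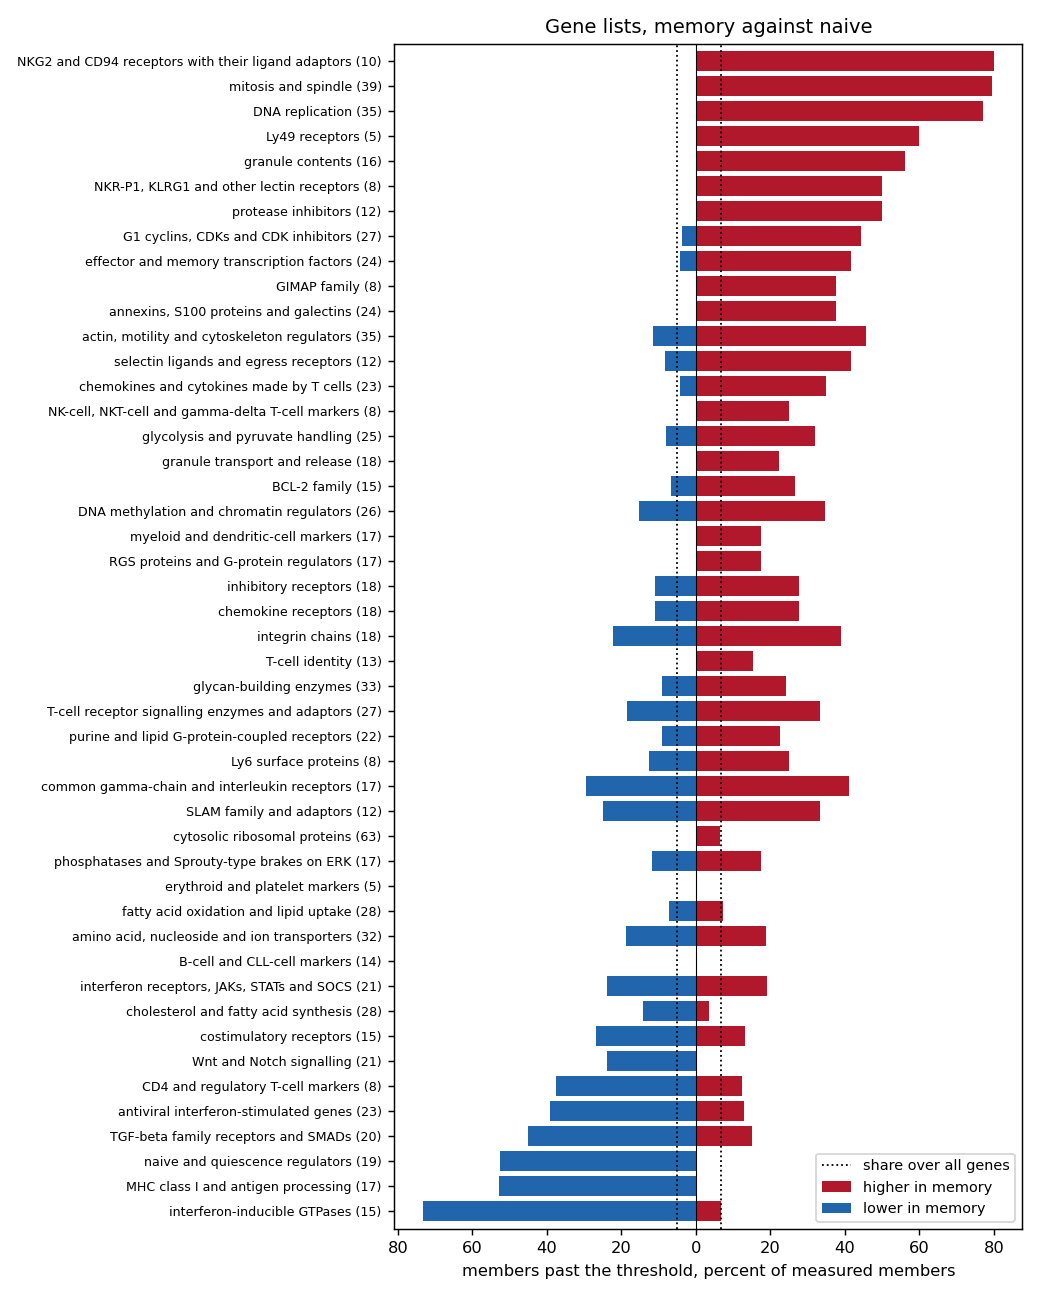
Share of measured members past the threshold in each of 47 gene lists, higher in memory (red, right) and lower (blue, left), with the number of measured members in brackets; dotted lines mark the shares over all genes, 6.7% and 5.02%. Mitosis, replication and NKG2 genes have the longest bars to the right, and interferon-inducible GTPases the longest to the left. Some lists share members. The dotted shares cover genes of all levels, and bright genes passed more often than dim ones.

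Cell-cycle transcripts rose in memory and differed among its arrays. Of 39 mitosis and spindle genes 31 rose and none fell (median 1.15), and of 35 DNA replication genes 27 rose and none fell (median 0.67). The mean of the mitosis list was 6.72, 6.62, 6.59 and 6.71 on naive arrays 1 to 4 and 8.38, 7.44, 7.34 and 8.21 on memory arrays 1 to 4. Memory replicates 1 and 4 were thus above replicates 2 and 3, and all 4 were above naive. Mki67, whose product Ki-67 marks dividing cells, lay at 7.19, 6.83, 6.52 and 6.98 on naive arrays and at 10.67, 9.25, 9.52 and 10.42 on memory arrays, a rise of 3.09 ± 0.24. Ccna2 (cyclin A2) rose by 2.82 ± 0.31, Top2a, which untangles chromosomes, by 2.16 ± 0.24, and Kif11, the motor that separates spindle poles, by 2.47 ± 0.25. The mitosis list mean of every PD-1int and PD-1hi array was above that of every memory array, from 8.58 to 9.10 and from 9.45 to 9.85.

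Replication genes followed the same arrays. Dtl, which targets the licensing factor CDT1 for destruction, lay at 7.09, 7.13, 6.43 and 6.68 on naive arrays and at 9.38, 8.09, 8.46 and 9.20 on memory arrays, a rise of 1.95 ± 0.23. Uhrf1, which copies DNA methylation to new strands, rose by 1.75 ± 0.17. E2f8, a repressor of S-phase genes, had the widest memory range among genes other than small RNAs and predicted loci, with 8.84, 6.57, 7.18 and 8.49 against 5.56 to 6.15 in naive. By symbol, 9 of 35 histone genes rose and none fell, 25.7% against 11.7% of all genes. Leaving out memory replicate 1 or memory replicate 4 left 25 of 39 mitosis genes higher.

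**Figure D4:**
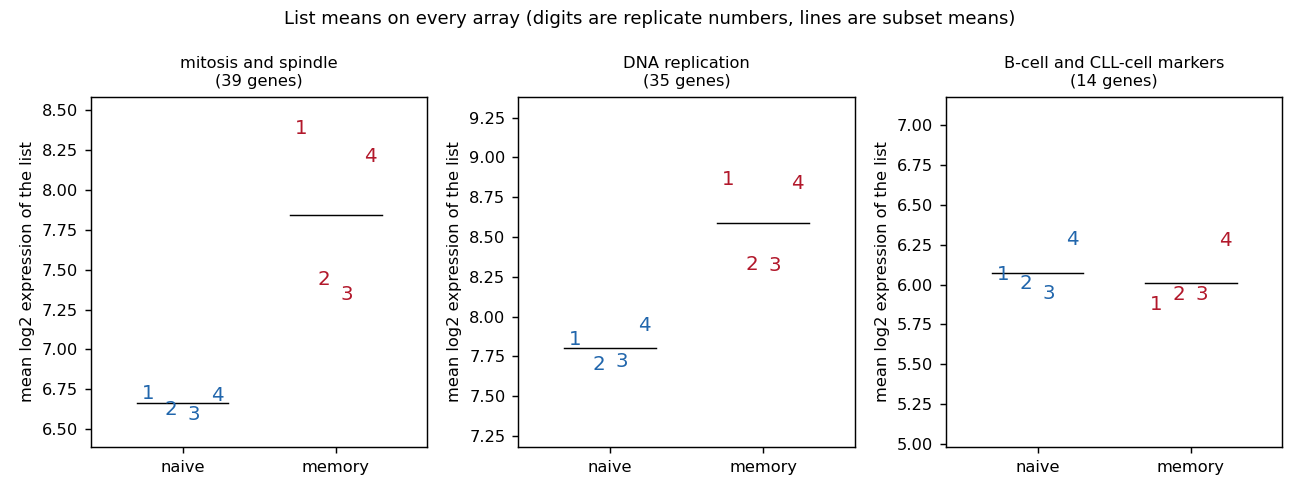
Mean log2 expression of 39 mitosis genes, 35 DNA replication genes and 14 B-cell markers on every array; digits are replicate numbers, lines are subset means, and the 3 panels span the same number of log2 units. Memory replicates 1 and 4 are highest in mitosis and replication, and replicate 4 is highest in B-cell markers in both subsets.

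Promoters of Kif11 and Dtl are shown because their lists hold different letters. The cell-cycle homology region (CHR), searched as TTTGAA on either strand, stands in 24 of 31 mitosis promoters (77.4%), 4 of 29 replication promoters (13.8%) and 17.8% of all genes with a promoter. The E2F letters GCGGGAA stand in 0 of 31 mitosis promoters, 15 of 29 replication promoters (51.7%) and 6.89% of all. CCAAT, the box bound by NF-Y, is common to both, at 71.0% and 65.5% against 41.6% of all. None of these 3 strings of letters lies within another. In Kif11 (RefSeq, GRCm38.p6, plus strand) the CHR is matched on the opposite strand, and in Dtl (minus strand) so is the E2F match; both are in capitals.
Kif11, chr19:37376132-37376431: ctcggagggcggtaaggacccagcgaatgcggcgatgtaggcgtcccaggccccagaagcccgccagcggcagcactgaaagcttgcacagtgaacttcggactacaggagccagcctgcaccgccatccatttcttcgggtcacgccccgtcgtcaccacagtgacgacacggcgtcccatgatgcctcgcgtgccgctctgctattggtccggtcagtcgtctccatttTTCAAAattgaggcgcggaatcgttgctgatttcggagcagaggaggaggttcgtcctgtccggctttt
Dtl, chr1:191575495-191575794: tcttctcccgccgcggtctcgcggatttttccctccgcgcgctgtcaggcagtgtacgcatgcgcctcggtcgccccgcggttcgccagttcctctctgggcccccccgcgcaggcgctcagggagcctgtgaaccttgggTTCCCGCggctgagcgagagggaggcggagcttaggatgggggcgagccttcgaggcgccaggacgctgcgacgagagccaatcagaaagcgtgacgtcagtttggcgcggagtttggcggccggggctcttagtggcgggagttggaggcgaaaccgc

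**Figure D5:**
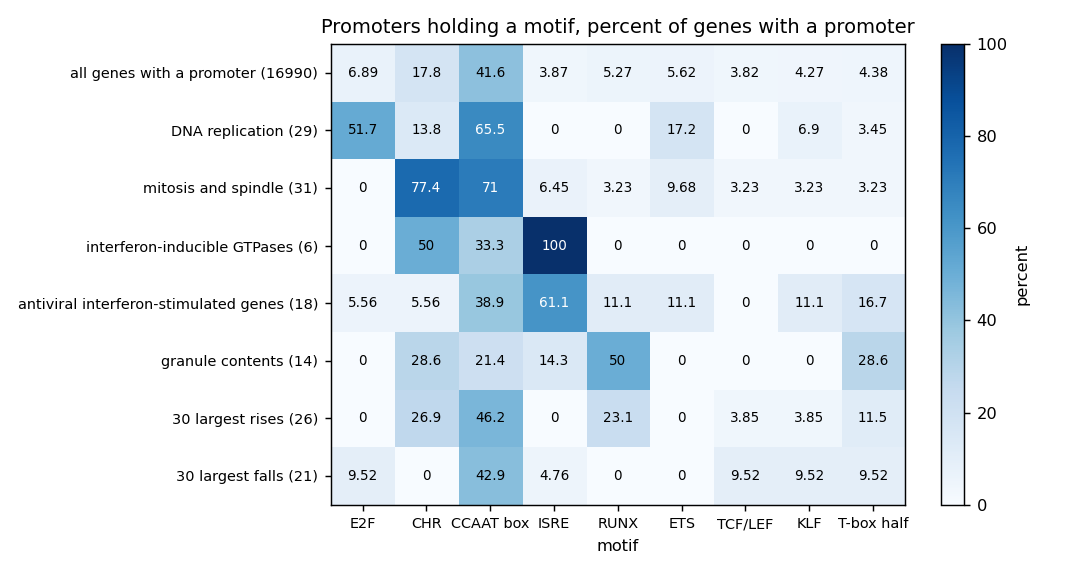
Percent of genes with a promoter that hold each of 9 motifs on either strand, for gene lists (rows, with the number of genes that have a promoter) and for all 16990 genes with one. ISRE letters are most frequent in the interferon lists, CHR in mitosis, E2F in replication and RUNX in granule contents; these shares are descriptions without a test.

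At the entry into the cycle, 12 of 27 genes for G1 cyclins, CDKs and their inhibitors rose and 1 fell (2 without naive replicate 1). Besides E2f8, E2f3 rose by 1.03, Ccne1 (cyclin E1) by 0.94 and Cdkn2c, which inhibits CDK4 and CDK6, by 1.02. Cdkn1b, which encodes the inhibitor p27 and holds cells at rest, fell by 0.45 on the log2 scale (adjusted p = 0.0126), but its adjusted p rose to 0.0554 without memory replicate 1. Of chromatin regulators 9 of 26 rose and 4 fell. Ezh2, the methyltransferase of Polycomb complex 2, rose by 1.04 ± 0.15, from 8.69 to 9.24 on naive arrays to 10.33, 9.66, 9.64 and 10.12 on memory arrays, again highest in replicates 1 and 4. Tet1 and Tet3, which oxidise methylated cytosine, fell by 0.82 and 0.60 on the log2 scale. The number that fell was 2 without naive replicate 3 or without memory replicate 2.

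Of 28 fatty acid oxidation genes 2 rose and 2 fell, with a median of 0.05. That is 14.3% changed, against 11.7% of all genes and 18.6% of genes with a mean level from 7 to below 9. Without naive replicate 1, 4 were higher and 1 lower; without memory replicate 3, 4 were higher; and 1 was lower without naive replicate 3 or 4 or memory replicate 1 or 2. In this list Acot7, a thioesterase gene, rose by 1.32 ± 0.13 and Etfb, a subunit of the flavoprotein that takes electrons from fatty acids, by 1.03 ± 0.10, but Etfdh, which takes them on, fell by 0.60 on the log2 scale. Glycolysis rose in 8 of 25 genes and fell in 2. Tpi1 rose by 0.90 and Slc2a1, the glucose transporter GLUT1, by 0.64, while Ldhb and Pdk1 fell by 0.90 and 0.73. Among ion transporters the calcium pump gene Atp2b4 rose from 5.63 to 5.86 on naive arrays to 7.90 to 8.31 on memory arrays (2.37 ± 0.14). Of 63 cytosolic ribosomal protein genes 4 rose and none fell, and 2 rose after quantile normalization. That is 6.35% changed, against 11.7% of all genes and 29.8% of genes with a mean level from 9 to below 11. The mean of this list lay between 9.93 and 10.14 on the 8 arrays.

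Of 35 actin, motility and cytoskeleton genes 16 rose and 4 fell. Myo1f, a membrane-linked myosin, lay at 8.73, 8.59, 9.09 and 9.06 on naive arrays and at 11.22, 11.27, 11.06 and 11.34 on memory arrays, a rise of 2.35 ± 0.10. Dock5, an activator of RAC, rose by 1.21 ± 0.09 and the intermediate filament gene Vim by 0.95 ± 0.11. Against the majority, Actn1, which crosslinks actin, fell by 1.11 on the log2 scale, and Cnn3, which encodes a calponin, differed by -2.46 ± 0.15.

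The array also carries probe sets for 472 miRNA genes, of which 7 rose and 18 fell. That is 5.3% changed, against 11.7% of all genes and 3.68% of genes with a mean level from 5 to below 7. Whether they read the hairpin, its precursor or the host transcript was not tested. Mir1967, which lies within Urb2, a ribosome assembly gene, lay at 4.50, 4.26, 4.80 and 3.85 on naive arrays and at 6.55, 6.70, 7.99 and 7.42 on memory arrays, a rise of 2.81 ± 0.39, while Urb2 did not pass (adjusted p = 0.225). Mir708, within Tenm4, rose by 0.59 ± 0.09 while Tenm4 differed by -0.09 ± 0.10. Mir1198, within Gripap1, fell by 0.69 on the log2 scale while Gripap1 differed by -0.11 ± 0.11. Of 11 measured Mir669 genes, which lie in a cluster within Sfmbt2, 5 fell, with limma adjusted p from 0.00112 to 0.0257. Of all measured miRNA genes 3.81% fell. Reads of a neighbouring Mir669 gene by a probe set were not tested, so these calls may not be separate events. Mature sequences from Mir1967, Mir708 and Mir1198 are given from RefSeq (GRCm38.p6), with the seed, bases 2 to 8, in capitals. Of the 25 miRNA genes that changed, 18 have a mature sequence in the table, the 5 Mir669 genes not among them, and these 29 mature sequences have 29 different seeds.
mmu-miR-1967: uGAGGAUCcuggggagaagaugc
mmu-miR-708-5p: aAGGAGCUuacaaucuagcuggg
mmu-miR-1198-5p: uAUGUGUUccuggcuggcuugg

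Arrays of a subset differed little in most genes. The median SD over all genes was 0.143 in naive and 0.123 in memory, and the range reached 2-fold in 369 and 240 genes. Among the widest memory ranges, small RNAs and predicted loci left out, were cell-cycle genes high in replicates 1 and 4, such as Depdc1a (7.21, 5.56, 6.12 and 7.78) and Nusap1, which binds spindle microtubules (9.36, 7.78, 7.72 and 9.12). H2-DMb2, an MHC class II chaperone gene of B cells, had 5.99, 5.66, 5.65 and 7.65, highest in replicate 4. In naive the widest ranges included Stmn1, a microtubule regulator of dividing cells, at 6.05, 6.72, 5.59 and 7.94. Stmn1 did not pass (adjusted p = 0.0736) but passed without naive replicate 4 (0.00127).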

How the data were processed

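RNA of each sorted subset was amplified and biotin-labelled (WT Pico kit) for Affymetrix Mouse Gene 2.0 ST arrays, per the labels' protocols. The authors deposited log2 expression values for 41345 probe sets; Affymetrix Power Tools is named in the submitters' processing notes, with neither version nor summarisation method given in the sources used here. Deposited values ran from 2.35 to 14.1, the medians of the 8 arrays lay between 6.39 and 6.49, and no 2 arrays were identical. Of the probe sets, 23521 carry 1 gene symbol, 1814 several and 16010 none; 1082 genes had several probe sets, of which the brightest on average was kept, which left 22180 genes. No detection call was used, so low values may be background, and the number of arrays limits the precision.

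Memory was compared with naive in limma 3.58.1 (R 4.3.3), fitted on all 16 arrays with 1 mean per subset, with moderated statistics and Benjamini-Hochberg adjustment over all genes; tables were made in Python 3.11.15. On data simulated for this comparison and 22180 genes, the fit recovered 31 of 50 genes changed by 0.5 on the log2 scale, 48 of 50 at 1 and 50 of 50 at 1.5 and at 2, with 6 false calls among 21980 unchanged genes. The simulated noise was normal and independent between genes and arrays. The share of changed genes was smaller than the 11.7% called in the data, so recovery in the data may differ.

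Named genes were the 30 largest rises and 30 largest falls without overlap between arrays (predicted loci, small RNAs and receptor segments left out), the sort genes, up to 5 genes per list by adjusted p with members moving against their list, and the 15 widest ranges in each subset. Other genes in the text, the miRNA genes among them, were chosen after their values were seen. The comparison, members and 47 gene lists were chosen with earlier results of these data known. The pattern that picks histone genes by symbol was corrected, and the interferon GTPase and NKG2 lists were added to the motif search, after the data were seen. Alternatives were a replicate block, a fit of 8 arrays, a filter on dim genes, averaging of probe sets per gene, median centring, quantile normalization, trended robust moderation, array weights and leaving out each array.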

Additional observations from a re-analysis of the deposited data

Results flagged for a closer look

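In the genes named in the report, 24 of 394 groups of 4 arrays held 1 array that stood apart from the other 3 by Dixon's criterion, and among list means 5 of 94 did; chance gives about 5%. All values are log2 levels. No explanation was tested.

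Memory replicate 1 had Ccl5 below the others, at 13.46 against 13.59 to 13.61 and Tpi1 above the others, at 10.34 against 10.16 to 10.17. Memory replicate 2 had Cd8a above the others, at 11.73 against 11.61 to 11.63 and S100a4 below the others, at 9.43 against 10.33 to 10.44. Memory replicate 2 had Gbp10 below the others, at 10.43 against 10.58 to 10.61 and Nlrc5 below the others, at 10.35 against 10.51 to 10.53. Memory replicate 2 had Klf3 above the others, at 11.12 against 10.86 to 10.87 and Fyn above the others, at 11.37 against 11.32 to 11.33. Memory replicate 2 had Ldhb above the others, at 7.21 against 6.97 to 7.0 and the mean of naive and quiescence regulators above the others, at 9.52 against 9.43 to 9.44. Memory replicate 3 had Itgae below the others, at 7.14 against 7.37 to 7.42 and Ctla4 below the others, at 6.01 against 6.30 to 6.35. Memory replicate 3 had Etfdh below the others, at 8.32 against 8.59 to 8.64 and the mean of actin, motility and cytoskeleton regulators below the others, at 9.64 against 9.73 to 9.74. Memory replicate 4 had Cd86 above the others, at 7.52 against 6.17 to 6.27 and Eif2ak2 above the others, at 8.36 against 8.03 to 8.03. Memory replicate 4 had Tgfbr3 above the others, at 7.05 against 6.82 to 6.83 and H2-DMb2 above the others, at 7.65 against 5.65 to 5.99. Memory replicate 4 had the mean of B-cell and CLL-cell markers above the others, at 6.27 against 5.88 to 5.94. Naive replicate 1 had Cd86 below the others, at 8.23 against 8.72 to 8.76 and the mean of NKG2 and CD94 receptors with their ligand adaptors above the others, at 6.56 against 6.47 to 6.47. Naive replicate 2 had Itga6 below the others, at 9.35 against 9.59 to 9.61. Naive replicate 3 had Ctla2b above the others, at 5.74 against 5.28 to 5.30 and Klrc2 above the others, at 4.89 against 4.67 to 4.68. Naive replicate 3 had Klra9 below the others, at 3.70 against 4.39 to 4.44 and Smad3 below the others, at 7.91 against 8.19 to 8.25. Naive replicate 3 had Kif11 below the others, at 5.61 against 5.92 to 5.93. Naive replicate 4 had S100a6 above the others, at 6.96 against 6.10 to 6.16 and the mean of granule contents above the others, at 7.91 against 7.75 to 7.76.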

How the results depend on the processing

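The count of changed genes, 2601, was 2359 with only the 8 arrays in the fit, 2841 without the 40% dimmest genes, 2535 when probe sets of 1 gene were averaged, 2731 after quantile normalization, 2392 after median centring, 2737 with trended robust moderation and 2806 with array weights. Quantile normalization moved the split to 1387 higher and 1344 lower. Leaving out 1 array at a time gave 2091 to 2560 changed genes, 1203 to 1518 higher, 874 to 1042 lower and 398 to 444 of at least 2-fold. Of the genes named in the report, 4 lost their call in some setting (Zbtb7b, Ltb, Ifngr1 and Cdkn1b), 5 without a call gained one (Il7r, Itgb7, H2-K1, Id3 and Stmn1), and none of those called changed direction. The median difference moved in 29 of 47 lists by over 1 SD in some setting. That SD is the spread of the list's mean among the 4 memory arrays. The largest move of a list median was 0.879. The filter on dim genes also removes list members, so a median can move there without a change in any gene's difference. The NKG2 and CD94 list, for example, went from 10 to 7 members. With only the 8 arrays in the fit, 4 inhibitory receptors were lower in place of 2. In that fit 5 phosphatases and Sprouty-type brakes were higher in place of 3.

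With the replicate number as a block, 2633 genes changed (1522 higher, 1111 lower, 424 at least 2-fold), of which 2445 were shared with the fit without the block. Sample titles carry the same AT number in every subset, but the labels do not say what it stands for, so the numbers are not known to pair samples. Over all genes, deviations of same-numbered naive and memory arrays correlated at 0.032, -0.048, 0.059 and 0.08. Of 4 naive arrays 2 correlated best with their own number. Single genes that follow the number in every subset are given below. Pairing was not tested.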

Other observations

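Among 555 genes examined for levels that follow the replicate number in every subset, chosen after the values were seen, Erdr1 lay at 12.49, 13.10, 11.36 and 12.17 on naive arrays 1 to 4 and at 12.52, 13.01, 11.49 and 12.37 on memory arrays 1 to 4. Differences between numbers made up 94.8% of the within-subset sum of squares of Erdr1, 91.8% for Xlr3b and 89.4% for H2-Aa. These are among the highest shares of the 555 genes. H2-Aa, an MHC class II gene of B cells and other presenting cells, lay at 6.49, 6.41, 6.22 and 7.25 on naive arrays and at 5.76, 6.06, 6.01 and 7.26 on memory arrays, highest on replicate 4 in both subsets. Fcmr, the receptor for IgM, was likewise highest on replicate 4, at 7.25 in naive and 7.14 in memory. Of 16010 probe sets without a gene symbol, 467 passed the limma threshold, 238 higher and 229 lower in memory. Of 1814 probe sets that carry several symbols, 151 passed. Both shares are smaller than the 11.7% of genes with 1 symbol.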
